A study of Mus musculus with 13 samples.

Results

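Activins, their follistatin antagonists and the stress cytokine GDF15 were followed through 10 genes chosen by name (Inhba, Inhbb, Gdf11, Gdf15, Fst, Fstl3, Fstl1, Acvr2a, Acvr1 and Acvr1b), whose symbols were matched to the gene identifiers of the count files. They are 10 of the 57010 genes listed for each library, and all 10 were among the 15034 genes with enough reads to test. Mouse embryonic fibroblasts (MEFs) of WT embryos were profiled by bulk RNA sequencing (RNA-Seq) in 4 groups of 3 samples, from mice numbered 4, 5 and 6 in each group. Control MEFs received neither agent. Untreated senescent cells (SnCs) were MEFs that had been exposed to 2 µM etoposide, a topoisomerase poison that breaks DNA, for 24 h and then kept in normal medium for 5 days. The other 2 groups were such SnCs given Fucoidan-FV, a sulfated polysaccharide from the brown alga Fucus vesiculosus, at 100 or 300 µg/mL, with RNA taken after 12 h. All 9 senescent samples thus carry the etoposide exposure, and every group is a primary culture of mixed embryonic fibroblasts rather than a clone. Whether cultures of 1 mouse number were raised together is not given in the sources used here, so p-values measure the spread between these samples.

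Activins are dimers of inhibin β subunits that belong to the TGF-β superfamily. They bind a type II receptor such as ACVR2A, which then recruits and activates the type I receptor ACVR1B (ALK4), and the pair phosphorylates SMAD2 and SMAD3. GDF11 uses the same type II receptors, and ACVR1 (ALK2) is a type I receptor mainly of bone morphogenetic proteins. Follistatin (FST) and FSTL3 are secreted proteins that wrap around activin and keep it from its receptors. GDF15 is a distant relative that is induced by cell stress and acts through GFRAL and RET in the brainstem. Activin A and GDF15 are commonly listed among the factors that SnCs secrete.

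The promoter of Acvr2a is shown because this gene was the only one of the 10 to pass the thresholds in any comparison, and that of Inhba because it encoded the most abundant ligand and had the widest spread between SnC samples. Both are the 250 bases before the gene start in RefSeq (GRCm38.p6, plus strand), with capitals marking matches to a GC box (GGGCGG or its reverse complement CCGCCC) or a TATA motif (TATAAA or TTTATA).
Acvr2a, chr2:48813859-48814108: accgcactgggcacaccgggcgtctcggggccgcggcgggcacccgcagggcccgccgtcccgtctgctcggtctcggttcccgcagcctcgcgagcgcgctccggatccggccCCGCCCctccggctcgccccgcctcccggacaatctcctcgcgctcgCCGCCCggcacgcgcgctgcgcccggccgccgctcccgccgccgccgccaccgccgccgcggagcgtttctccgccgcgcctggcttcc
Inhba, chr13:16011601-16011850: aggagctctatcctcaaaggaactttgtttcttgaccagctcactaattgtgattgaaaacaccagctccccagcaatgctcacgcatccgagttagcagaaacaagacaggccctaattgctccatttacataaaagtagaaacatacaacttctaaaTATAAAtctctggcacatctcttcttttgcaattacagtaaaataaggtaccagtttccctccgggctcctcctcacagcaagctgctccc
The Acvr2a stretch holds 49 CG dinucleotides in 82.0% G and C and 2 GC boxes, whereas the Inhba stretch holds 3 CG dinucleotides in 43.2% G and C and 1 TATA motif. Over 32841 RefSeq windows of this length the median is 6 CG dinucleotides and 52.4% G and C, and 32.7% of windows hold a GC box and 12.4% a TATA motif. Neither stretch holds the AP-1 letters TGANTCA, the CRE letters TGACGTCA or the CARE letters TGATGNAA on either strand, which occur in 6.75%, 1.55% and 3.45% of windows. Of the 10 genes, 9 had a window in this table and Fst had none.

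The libraries held between 22782536 and 31278750 counts. The fibroblast markers (9 genes, Col1a1 and Vim among them) summed to between 10600 and 16510 CPM (counts scaled to a common library size) in the 12 samples. Single genes of this list shifted between the groups. In control MEFs, SnCs, 100 and 300 µg/mL the mean of Dcn was 1.06, 16.25, 81.65 and 75.7 CPM, and that of Vim 5590, 7729, 4228 and 4869 CPM. In edgeR 2 of the 9 rose in SnCs against control MEFs, and 3 and 1 at 100 and 300 µg/mL against SnCs, while 0 fell. These passed an adjusted p below 0.05 and a log2 fold change beyond ±1 (4.47%, 1.10% and 0.752% of all genes rose). Macrophage markers (7 genes) summed to 0.47 to 12.5 CPM, endothelial markers (5 genes) to 1.32 to 11.7 CPM and epithelial markers (5 genes) to at most 0.644 CPM. The macrophage sum was 0.47 to 3.69 CPM in control MEFs and 2.24 to 12.5 CPM in SnCs. It was 3.13 to 10.3 CPM with 100 µg/mL and 3.72 to 7.255 CPM with 300 µg/mL. All 7 macrophage genes had a positive log2 fold change in SnCs against control MEFs, as did 8145 of 15034 tested genes. The endothelial sum was 5.23 to 11.7 CPM with Fucoidan-FV and 1.32 to 3.30 CPM without it, mostly through Tek, while Cdh5 was at a mean of 0.247 CPM or less in every group. The muscle list (6 genes) summed to 22.0 to 266.8 CPM almost wholly through Des, with Myod1 and Myog at 0.0242 CPM or less in every group mean. The neural list (5 genes) was nearly all Nes, which was at 748.9 CPM in control MEFs, 822.9 CPM in SnCs, and 145.4 and 154.1 CPM with 100 and 300 µg/mL Fucoidan-FV, with Elavl3 at 0.0544 CPM or less. The part of these marker shifts in the results below was not tested. In bulk RNA, fewer cells that express a gene and less RNA per cell cannot be told apart.

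One property of the libraries touches several of the 10 genes and comes before their values. Control mouse 5 was sequenced as a pair of libraries, 5(1) and 5(2), and over 1283 genes whose whole sequence belongs to a single annotated transcript the median log2 difference of 5(2) from 5(1) was 1.67, against −0.16 over 6685 genes with less than 50% such sequence. Inhbb, Acvr1b and Gdf11 consist wholly of such sequence. Between the libraries of this 1 mouse Inhbb was at 5.50 and 27.5 CPM, Acvr1b at 1.15 and 5.39 CPM, and Gdf11 at 1.67 and 12.8 CPM. Acvr2a (79.4% single-transcript sequence) was at 5.40 and 15.7 CPM and Fstl1 (73.7%) at 453.5 and 958.2 CPM. Fst (41.6%) moved the other way, at 59.6 and 31.9 CPM, and Inhba (7.45%) was at 357.5 and 459.8 CPM. For the tests both libraries were summed to 1 control sample.

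**Figure D1:**
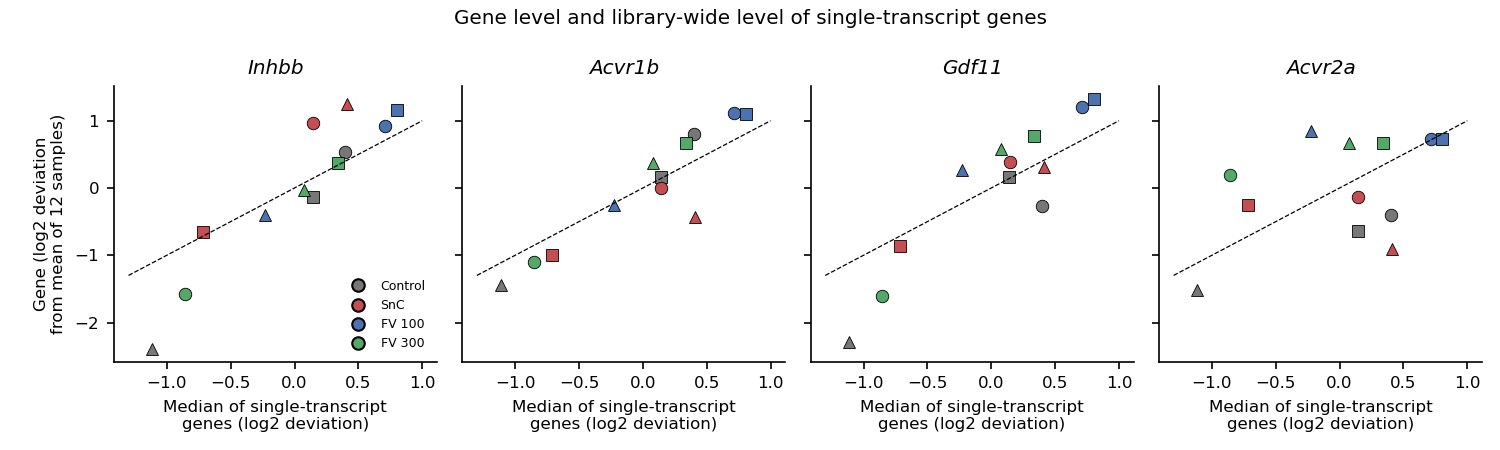
The log2 deviation of 4 genes from their mean over 12 samples (y axis) is plotted against the median deviation of all genes with single-transcript sequence in the same sample (x axis), with colour for the group, circles, squares and triangles for mice 4, 5 and 6, and a dashed line where both are equal. All 4 genes are lowest in control mouse 6, where the median is −1.11 and Acvr2a is at −1.51. The Acvr2a points with Fucoidan-FV lie between 0.19 and 0.85 at medians from −0.86 to 0.81.

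Per unit of length the 10 genes spanned nearly 3 orders of magnitude, and their order was similar in every group. In TPM, the length-normalized level of RSEM, which can be compared between genes, control MEFs had Fstl1 at 630.6 ± 41.1 (SD, n = 3, as for all values with ±), Inhba at 254.7 ± 51.3, Fstl3 at 83.7 ± 8.39, Acvr1 at 64.3 ± 16.0 and Fst at 60.6 ± 14.6. The ranges of Fstl3, Acvr1 and Fst overlapped, so their order is not resolved. Gdf15 followed at 17.9 ± 2.47 TPM, and Acvr2a (5.12 ± 1.75), Inhbb (4.97 ± 3.82), Gdf11 (1.52 ± 1.15) and Acvr1b (0.973 ± 0.718) formed an overlapping low end. Thus Acvr1b, the type I receptor for activin, had the lowest group mean of the 10 genes in all 4 groups, with 0.63 to 2.29 TPM. Its range overlapped that of Gdf11 in control MEFs and with 300 µg/mL, so their order there is not resolved. Both consist wholly of single-transcript sequence, whose level differed between the libraries of control mouse 5. In SnCs the range of Inhba was 41.0 to 455.9 TPM and overlapped that of Fstl3, while with either dose Fstl1 and Inhba stood apart from the rest.

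**Figure D2:**
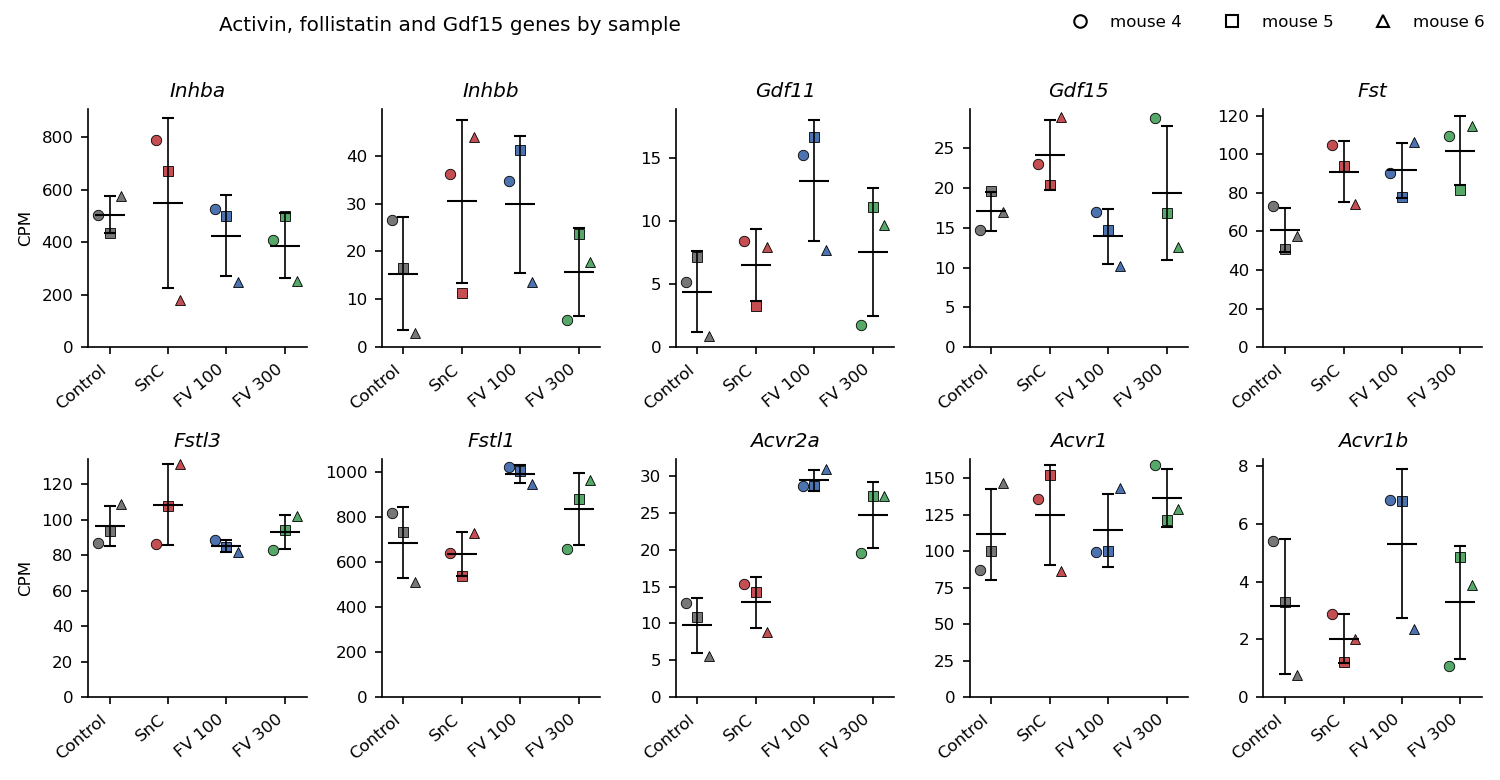
CPM of each gene (y axis, from 0, a separate scale per panel) in control MEFs, SnCs and SnCs with 100 or 300 µg/mL Fucoidan-FV (x axis), with 1 symbol per mouse and bars for mean ± SD of 3 mice. The Acvr2a points with Fucoidan-FV (19.5 to 31.0 CPM) lie above all points without it (5.64 to 15.4 CPM), and Inhba of mouse 6 is the lowest point in each senescent group. How many of all genes separate as Acvr2a does was not counted.

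Differences were tested over all 15034 genes, and DEGs are genes whose log2 fold change was beyond ±1 at an adjusted p below 0.05. Between SnCs and control MEFs 0 of the 10 genes were DEGs in edgeR, where 8.42% of all tested genes were. One of the 10 (Fst) had an unadjusted p under 0.05, against 25.4% of all genes, and DESeq2 called 0. With 100 µg/mL Fucoidan-FV against SnCs edgeR called 0 of 10 genes (background 2.69%), 3 had an unadjusted p under 0.05 (19.8% of all genes), and DESeq2 called 1, Acvr2a. With 300 µg/mL edgeR called 0 (background 1.64%), 1 had an unadjusted p under 0.05 (15.3% of all genes), and DESeq2 called 0. Both doses were compared with the same 3 SnC samples. Between the doses edgeR and DESeq2 called 0 of the 10 genes and 0 had an unadjusted p under 0.05 (0.625% of all genes), where 0.00665% of all genes were DEGs. Against control MEFs 1 of 10 genes, Acvr2a, was a DEG at 100 µg/mL (background 19.7%) and at 300 µg/mL (background 18.0%), in comparisons that share their control samples with each other and with that of SnCs. The median log2 fold change of the 10 genes was 0.28 in SnCs against control MEFs, −0.01 at 100 µg/mL and 0.14 at 300 µg/mL against SnCs, and the medians over all genes were 0.07, −0.02 and 0.00.

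In CPM the values of SnCs and control MEFs did not overlap for 2 of the 10 genes, Fst and Gdf15, against 27.1% of all genes. Those of SnCs and of SnCs with 100 µg/mL did not overlap for 3, Fstl1, Acvr2a and Gdf15 (26.2% of all genes). At 300 µg/mL this held for Acvr2a, 1 of the 10 (19.6% of all genes). These separations depend in part on the scale. In TPM Fst of SnCs overlapped control MEFs, and Gdf15 of SnCs overlapped the group with 100 µg/mL. Fstl1 in TPM was also apart at 300 µg/mL (913.8 to 1079, against 541.5 to 668.6 in SnCs).

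**Figure D3:**
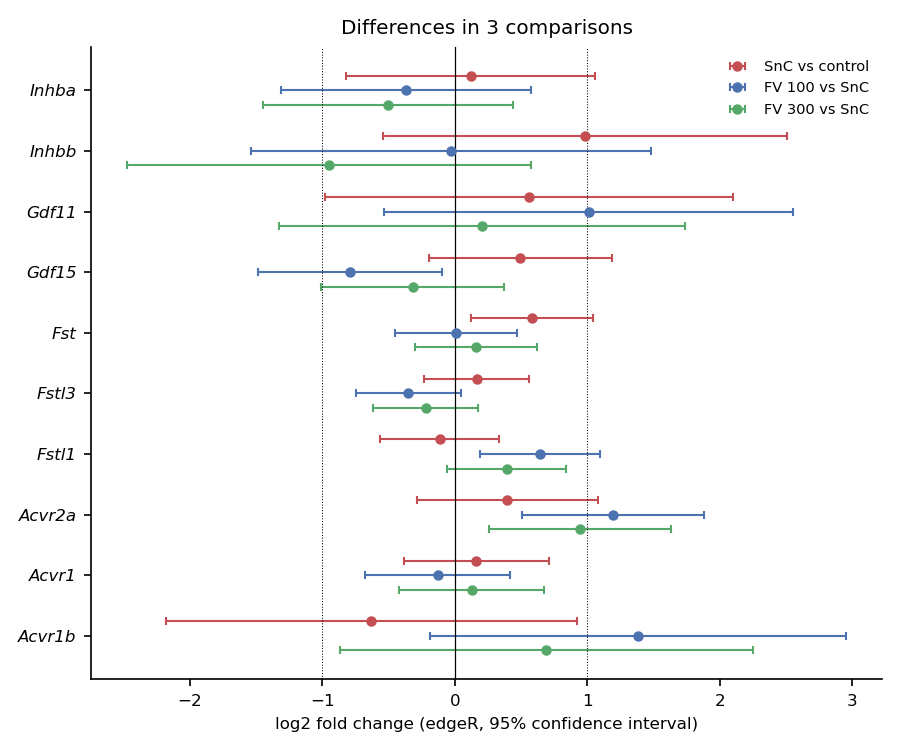
log2 fold changes (x axis) of the 10 genes (y axis) with 95% confidence intervals from edgeR, for SnCs against control MEFs and for each dose of Fucoidan-FV against SnCs, with dotted lines at −1 and 1. The intervals of Inhbb, Gdf11 and Acvr1b are the widest, and those of Acvr2a lie above 0 at both doses (0.51 to 1.89 and 0.26 to 1.63).

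Inhba (ENSMUSG00000041324, chromosome 13, 16186373 to 16206206 of GRCm39, plus strand) encodes the βA subunit of activin A. It was at 503.8, 435.1 and 575.0 CPM in control MEFs of mice 4, 5 and 6, and at 791.0, 672.7 and 181.4 CPM in SnCs. With 100 µg/mL Fucoidan-FV it was at 526.7, 499.7 and 248.1 CPM, and with 300 µg/mL at 407.8, 499.9 and 253.2 CPM. Mice 4 and 5 had more Inhba in SnCs than in control MEFs (log2 differences of 0.65 and 0.63), and mouse 6, the highest control sample, had less (−1.66). In mouse 6 all 3 senescent samples, treated or not, were below every other sample. The log2 fold change of SnCs against control MEFs was 0.12 (SE 0.44, 95% interval −0.82 to 1.06, adjusted p = 0.910), and without SnC mouse 6 it was 0.55 (adjusted p = 0.367). Against SnCs it was −0.37 at 100 µg/mL (95% interval −1.31 to 0.57) and −0.50 at 300 µg/mL (−1.45 to 0.44), and both intervals hold 0 as well as a log2 fold change of −1. Mice 4 and 5 had less Inhba than their SnCs and mouse 6 had more, at both doses.

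Inhbb (ENSMUSG00000037035, chromosome 1, 119343193 to 119350021, minus strand) encodes the βB subunit. It was at 26.6, 16.5 and 3.05 CPM in control MEFs and at 36.1, 11.3 and 43.8 CPM in SnCs. With Fucoidan-FV it was at 34.7, 41.1 and 13.7 CPM at 100 µg/mL and at 5.78, 23.7 and 17.9 CPM at 300 µg/mL. All 4 groups overlapped. Its log2 fold changes were 0.98 (SE 0.71), −0.03 (SE 0.70) and −0.95 (SE 0.71) in the 3 comparisons. With an offset for single-transcript sequence and length they were 1.04, −0.64 and −1.12, with adjusted p of 0.0764, 0.351 and 0.123.

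Gdf11 (ENSMUSG00000025352, chromosome 10, 128718164 to 128727747, minus strand), a ligand close to myostatin, was at 5.14, 7.17 and 0.893 CPM in control MEFs and 8.44, 3.23 and 7.92 CPM in SnCs. At 100 µg/mL it was at 15.2, 16.6 and 7.72 CPM and at 300 µg/mL at 1.74, 11.1 and 9.71 CPM. The lowest value, in control mouse 6, rested on 19 reads. At 100 µg/mL all samples were above all control samples, a separation whose share over all genes was not counted. The log2 fold change of Gdf11 between these groups was 1.57 (SE 0.73, adjusted p = 0.128), or 1.00 (adjusted p = 0.0850) with the offset. It passed the thresholds with library 5(1) alone as control mouse 5 (2.33, adjusted p = 0.0290) and with no filter beyond 1 count (1.64, adjusted p = 0.0117), and with library 5(2) alone it was 1.03 (adjusted p = 0.391).

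Gdf15 (ENSMUSG00000038508, chromosome 8, 71082038 to 71091537, minus strand) was at 14.7, 19.6 and 17.0 CPM in control MEFs, at 23.0, 20.3 and 28.9 CPM in SnCs, at 17.0, 14.7 and 10.2 CPM with 100 µg/mL and at 28.7, 16.8 and 12.6 CPM with 300 µg/mL. In CPM every SnC sample was above every control sample and every sample with 100 µg/mL, whereas the group with 300 µg/mL overlapped each of the other 3. In TPM the SnCs (28.1, 22.2 and 26.6) stayed above control MEFs but overlapped the group with 100 µg/mL (26.4, 23.3 and 13.0). The log2 fold change was 0.50 in SnCs (SE 0.32, adjusted p = 0.374), −0.79 at 100 µg/mL (SE 0.32, adjusted p = 0.190) and −0.32 at 300 µg/mL (SE 0.32, adjusted p = 0.717). Hence none of these differences passed the correction, although the CPM changed in 1 direction in 3 of 3 mice in SnCs and at 100 µg/mL. In TPM mouse 5 was higher at 100 µg/mL than in SnCs. With the offset the value at 100 µg/mL was −0.40 (adjusted p = 0.475) and that in SnCs 0.27 (adjusted p = 0.588).

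Fst (ENSMUSG00000021765, chromosome 13, 114588731 to 114595521, minus strand) was at 73.3, 51.0 and 57.8 CPM in control MEFs and 104.9, 94.0 and 74.1 CPM in SnCs. With 100 µg/mL it was at 90.5, 77.9 and 106.3 CPM and with 300 µg/mL at 109.3, 81.4 and 114.8 CPM. In CPM all 9 senescent samples were above the 3 control samples, while the senescent groups overlapped each other. For how many of all genes 9 samples separate from 3 in this way was not counted. In TPM SnC mouse 6 (60.1) was below control mice 4 and 6 (68.2 and 69.8), so this separation depends on the scale. The log2 fold change against control MEFs was 0.58 in SnCs (SE 0.21, adjusted p = 0.10), 0.59 at 100 µg/mL (SE 0.21, adjusted p = 0.0557) and 0.75 at 300 µg/mL (SE 0.21, adjusted p = 0.0216). The last of these passed the adjusted p but not the fold threshold. Over the alternatives its adjusted p ran from 0.00531 to 0.0925. Between each dose and SnCs the log2 fold change was 0.01 (95% interval −0.45 to 0.47) and 0.16 (−0.30 to 0.62).

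Fstl3 (ENSMUSG00000020325, chromosome 10, 79613096 to 79618464, plus strand), the other activin antagonist, was at 87.0, 93.5 and 108.8 CPM in control MEFs and 86.0, 107.5 and 131.5 CPM in SnCs. The doses gave 88.6, 84.4 and 81.8 CPM and 83.1, 94.1 and 102.1 CPM. At 100 µg/mL its values lay within the range of the control samples or just below it, and all groups overlapped. At that dose the log2 fold change came to −0.35 (SE 0.18, adjusted p = 0.317). In TPM its mean was 101.5 at this dose and 96.3 in SnCs, so the direction depends on the scale. Of its exonic bases 47.1% overlap Prss57 on the opposite strand, a gene that was at 3.18 CPM or less in every sample.
The ratio of Inhba to the sum of Fst and Fstl3 in TPM was 1.66, 1.70 and 1.91 in control MEFs of mice 4, 5 and 6. In SnCs it was 2.21, 1.87 and 0.256. It was 1.5, 1.47 and 0.712 with 100 µg/mL and 1.24, 1.53 and 0.609 with 300 µg/mL. In CPM, which is not scaled for length, it was 3.14, 3.01 and 3.45 in control MEFs and 4.14, 3.34 and 0.882 in SnCs, so its size depends on the scale. On both scales it was higher in SnCs of mice 4 and 5 than in their other 3 samples, and lowest in SnCs of mouse 6. This ratio was not tested.

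Fstl1 (ENSMUSG00000022816, chromosome 16, 37597105 to 37656876, plus strand) shares the follistatin domain but is a matrix-associated glycoprotein made in bulk by mesenchymal cells. It was at 815.1, 732.2 and 509.6 CPM in control MEFs and 638.7, 535.5 and 729.6 CPM in SnCs, against 1022, 1002 and 946.4 CPM with 100 µg/mL. With 300 µg/mL it was at 655.9, 878.7 and 964.5 CPM. Every sample with 100 µg/mL was above every SnC and control sample. Against SnCs 26.2% of all genes did not overlap at this dose, and against control MEFs the share was not counted. The log2 fold change against SnCs was 0.64 (SE 0.21, unadjusted p = 0.00879 in edgeR, adjusted p = 0.104) and 0.39 at 300 µg/mL (SE 0.21, adjusted p = 0.409). With the offset the first was 0.57 with an adjusted p of 0.0156, which passes the adjusted p and stays under the fold threshold.

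Acvr2a (ENSMUSG00000052155, chromosome 2, 48703743 to 48793283, plus strand), the type II receptor, was at 12.8, 10.8 and 5.64 CPM in control MEFs and 15.4, 14.3 and 8.83 CPM in SnCs. With 100 µg/mL Fucoidan-FV it was at 28.6, 28.6 and 31.0 CPM, and with 300 µg/mL at 19.5, 27.3 and 27.3 CPM. All 6 samples with Fucoidan-FV were above all 6 without it, and the smallest gap was between SnC mouse 4 and mouse 4 at 300 µg/mL. The share of all genes that separate 6 against 6 was not counted. Against SnCs alone, 26.2% and 19.6% of all genes did not overlap at 100 and 300 µg/mL. Compared with control MEFs Acvr2a rose 3.01-fold at 100 µg/mL (log2 fold change 1.59, SE 0.32, adjusted p = 0.00280) and 2.54-fold at 300 µg/mL (1.34, SE 0.32, adjusted p = 0.00826), in 3 of 3 mice each. These treated cells differ from control MEFs by etoposide as well as Fucoidan-FV, which cannot be told apart in this contrast. The log2 fold change of SnCs against control MEFs was 0.40 (SE 0.32, adjusted p = 0.495). Against SnCs it was 1.20 at 100 µg/mL (SE 0.32, 95% interval 0.51 to 1.89, adjusted p = 0.0537) and 0.95 at 300 µg/mL (SE 0.32, 95% interval 0.26 to 1.63, adjusted p = 0.157), with 3 of 3 mice higher at each dose.
The comparison at 100 µg/mL therefore stood at the threshold. It passed with DESeq2 (1.28, adjusted p = 0.00197), RLE factors (1.28, adjusted p = 0.0470), no filter beyond 1 count (1.28, adjusted p = 0.0126) and at least 10 counts in every sample (1.3, adjusted p = 0.0386), and did not in the other 14 alternatives (adjusted p up to 0.167). The difference between the doses was −0.25 (95% interval −0.93 to 0.43). With the offset for single-transcript sequence and length Acvr2a had a value of 0.96 against SnCs at the lower dose (adjusted p = 0.0380) and of 0.89 at the higher (adjusted p = 0.0593). Its offset values against control MEFs were 1.49 and 1.43, at adjusted p of 0.000593 and 0.000855. With library 5(2) alone as control mouse 5 the values against control MEFs were 1.35 (adjusted p = 0.0167) and 1.10 (adjusted p = 0.0432), and with library 5(1) alone 1.86 and 1.61. Without control mouse 6, the sample with the lowest median of single-transcript genes, they were 1.49 (adjusted p = 0.00492) and 1.15 (adjusted p = 0.0173). Of the exonic bases of Acvr2a 50.8% overlap Orc4, an origin recognition complex gene on the opposite strand, which was at 36.8 to 42.1 CPM with 100 µg/mL, 43.6 to 49.3 CPM with 300 µg/mL and 40.2 to 73.8 CPM without Fucoidan-FV.
Among 12646 genes with a mean of at least 1 CPM, the patterns nearest to Acvr2a over the 12 samples were those of Insr, Lama4 and Rcsd1. Their root mean square difference from Acvr2a in mean-centred log2 CPM, with 0.5 CPM added before the log, was 0.21, 0.24 and 0.25, where the median gene had 0.86. Insr, the insulin receptor, was at 13.9 CPM in control MEFs, 15.2 CPM in SnCs, 35.7 CPM at 100 µg/mL and 28.3 CPM at 300 µg/mL. Lama4, a laminin chain, was at 16.8, 23.8, 58.6 and 49.9 CPM in the same order. Rcsd1 was near the floor, at 0.338, 0.758, 2.27 and 1.74 CPM, so the 0.5 CPM added is above its control mean. The single-transcript share of Insr (81.7%) and Lama4 (78.7%) is close to that of Acvr2a, and that of Rcsd1 is 35.6%. The part of this share in the likeness was not tested.

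Acvr1 (ENSMUSG00000026836, chromosome 2, 58278656 to 58457770, minus strand) was at 87.4, 100.2 and 146.8 CPM in control MEFs, 135.7, 152.0 and 86.7 CPM in SnCs, 99.2, 100.0 and 143.4 CPM with 100 µg/mL and 159.1, 121.3 and 128.7 CPM with 300 µg/mL. All groups overlapped, and its log2 fold changes in the 3 comparisons were 0.16, −0.13 and 0.13 (SE 0.25 each). Acvr1b (ENSMUSG00000000532, chromosome 15, 101071921 to 101111565, plus strand), the type I receptor for activin, was at 5.40, 3.28 and 0.752 CPM in control MEFs and 2.88, 1.21 and 2.00 CPM in SnCs. With 100 µg/mL it was at 6.82, 6.78 and 2.35 CPM and with 300 µg/mL at 1.09, 4.87 and 3.90 CPM. The highest values, in mice 4 and 5 at 100 µg/mL, were in the samples with the highest medians of single-transcript genes (0.71 and 0.81). Its log2 fold change at 100 µg/mL was 1.38 (SE 0.73, adjusted p = 0.318), and 0.71 (adjusted p = 0.352) with the offset. Acvr1b had 16 to 218 reads per sample, and its intervals spanned more than 3 log2 units, as did those of Inhbb (65 to 1290 reads) and Gdf11. Its interval at 100 µg/mL (−0.19 to 2.95) holds 0 as well as a doubling.

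The other genes of the pathway were read from a list of 45 genes, of which 35 were tested. Too low to test were the ligands Inhbc, Inhbe, Mstn, Nodal and Gdf3, the receptors Acvr1c and Gfral, the coreceptor Tdgf1, the protease Tll2 and the SMAD partner Foxh1. Gfral, the receptor of GDF15, had a group mean of at most 0.0237 CPM, while its partner Ret was at 10.95 to 14.7 CPM. In SnCs against control MEFs 1 of 35 genes rose (4.47% of all genes did) and 1 fell (3.95%). Acvrl1, a type I receptor of BMP9, rose from 30.8, 33.4 and 23.3 CPM to 54.1, 67.1 and 58.3 CPM (log2 fold change 1.04, SE 0.26, adjusted p = 0.0218). Tll1, a BMP1-like protease that frees GDF11 and myostatin from their propeptides, fell from 86.4, 71.7 and 70.9 CPM to 45.0, 46.0 and 16.9 CPM (log2 fold change −1.09, SE 0.31, adjusted p = 0.0352). Neither held in every alternative. Pcsk5, a convertase that cleaves TGF-β superfamily precursors, was at 4.07 CPM in control MEFs and 14.1 CPM in SnCs (1.77 on the log2 scale, SE 0.54, adjusted p = 0.0504), and was called in 10 alternatives, among them DESeq2 (adjusted p = 0.00812) and the replicate block (1.69, adjusted p = 0.0176). Acvrl1 had a fold change just under the threshold without control mouse 6 (0.91) or SnC mouse 5 (0.96), with no filter beyond 1 count (1.00), and with the offset (0.93). Tll1 was not called without control mouse 4 (−0.99, adjusted p = 0.117), mouse 5 (−1.13, adjusted p = 0.0773) or mouse 6 (−1.12, adjusted p = 0.0654), without SnC mouse 6 (−0.74, adjusted p = 0.0145), or with only the 2 groups in the fit (adjusted p = 0.153).

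With 100 µg/mL Fucoidan-FV against SnCs 2 of 35 genes fell (1.60% of all genes did) and 0 rose in edgeR (1.10%), where 11 of 35 had an unadjusted p under 0.05 (19.8% of all genes) and DESeq2 called 1 higher (Wfikkn2) and 1 lower (Tagln). Tagln, the actin-binding protein SM22, fell from 1657, 2037 and 3423 CPM to 1116, 1301 and 777.3 CPM (log2 fold change −1.16, SE 0.28, adjusted p = 0.0384). Tgif1, a corepressor of SMAD2 and SMAD3, fell from 75.8, 88.9 and 86.6 CPM to 40.4, 33.7 and 46.0 CPM (log2 fold change −1.07, SE 0.18, adjusted p = 0.00812). With 300 µg/mL 1 gene rose (0.752% of all genes did) and 1 fell (0.885%), and DESeq2 called the same 2 genes. Pcsk6, another such convertase, rose from 44.1, 57.3 and 25.5 CPM to 112.1, 99.6 and 76.6 CPM (log2 fold change 1.18, SE 0.27, adjusted p = 0.0397). Tagln fell to 854.6, 1185 and 882.6 CPM at this dose (log2 fold change −1.28, SE 0.28, adjusted p = 0.0328). Tgif1 was at 47.4, 42.0 and 38.4 CPM at 300 µg/mL. Its log2 fold change of −0.98 (SE 0.18, adjusted p = 0.0167 in edgeR) passed the adjusted p and stayed just under the fold threshold. It was called at this dose with the offset, with the offset and the block, and without mouse 4 of the treated group.
Of these calls Tagln held in 4 of 17 alternative fits at 100 µg/mL and in 8 at 300 µg/mL, and without SnC mouse 6 its log2 fold change was −0.62 (adjusted p = 0.300) and −0.86 (adjusted p = 0.157). With the mouse as a replicate block the adjusted p of Tagln was 0.0585 and 0.0544, and leaving out any other mouse of the groups compared, except SnC mouse 4 at 300 µg/mL, gave 0.0653 to 0.188. Tgif1 at 100 µg/mL held in 8 fits, with fold changes of −0.88 to −0.99 in the others, among them those without any 1 SnC mouse or mouse 5 of the treated group. Pcsk6 held in 10 fits and was not called without SnC mouse 4 or 6 or without any 1 mouse of the group at 300 µg/mL (adjusted p 0.0658 to 0.130).
The 14 tested SMAD and SMAD-modulating genes held 1 call in the 3 comparisons, Tgif1, and the 6 tested receptors 1, Acvrl1. Of the 6 genes taken as SMAD targets, 5 had a negative log2 fold change at each dose, as did 7678 and 7507 of all 15034 tested genes. The medians of the 6 were −0.56 and −0.58 against −0.02 and 0.00 for all genes. Tgfbi went the other way at both doses (0.36 and 0.51, adjusted p = 0.633 and 0.555 in edgeR). These 6 (Ccn2, Pmepa1, Tgfbi, Junb, Acta2 and Tagln) are also induced by TGF-β itself, and Ccn2, Acta2 and Tagln by serum response factor.

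**Figure D4:**
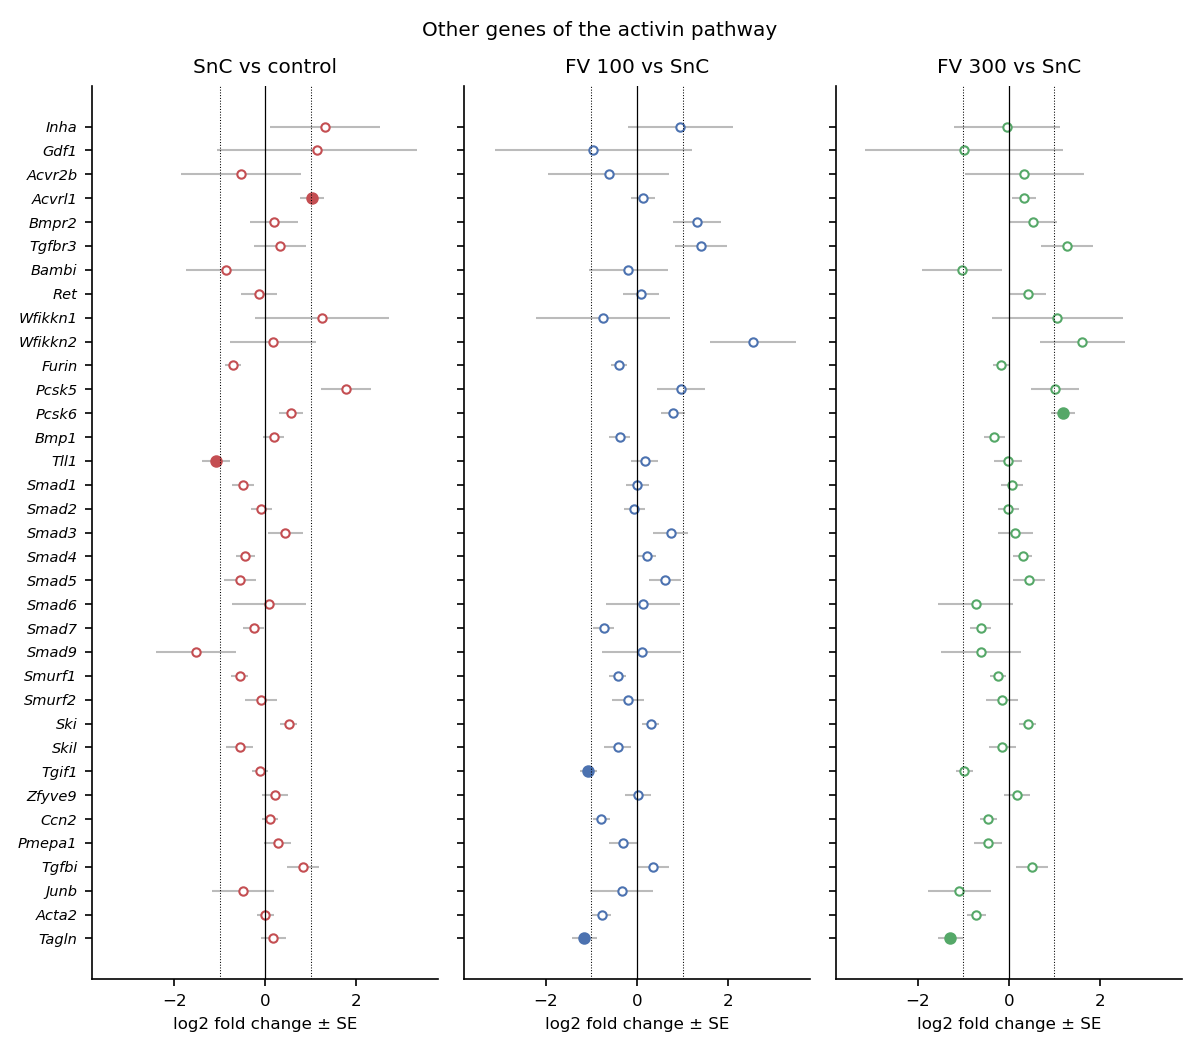
log2 fold changes ± SE (x axis) of the 35 tested pathway genes (y axis) in SnCs against control MEFs and in each dose of Fucoidan-FV against SnCs, with filled points for DEGs and dotted lines at −1 and 1. Tagln is filled at both doses (−1.16 and −1.28), Tgif1 at 100 µg/mL, and Pcsk6 at 300 µg/mL.

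A list of 12 genes that act upstream of Gdf15 or in the same stress responses was set beside it. In SnCs 3 of the 12 rose (4.47% of all genes did) and 1 fell (3.95%). The p53 targets Cdkn1a (log2 fold change 1.82, SE 0.18, adjusted p = 6.8e-05) and Mdm2 (1.53, SE 0.25, adjusted p = 0.00174) rose, as did Ddit3, the CHOP factor of the integrated stress response (1.38, SE 0.29, adjusted p = 0.00807). Ddit3 went from 18.5, 22.4 and 18.9 CPM to 38.2, 39.1 and 78.4 CPM, and its fold change was 0.96 without SnC mouse 6, its adjusted p 0.0517 without control mouse 4 and 0.0621 with library 5(2) alone as control mouse 5. Asns, an asparagine synthetase induced by ATF4, fell (−1.14, SE 0.20, adjusted p = 0.00238). Gdf15 itself had 0.50 (95% interval −0.19 to 1.19), and its difference from these genes was not tested. At either dose edgeR called 0 of the 12 genes against SnCs (2.69% and 1.64% of all genes), 5 and 3 had an unadjusted p under 0.05 (19.8% and 15.3%), and DESeq2 called 1 at each, Atf3 and Ddit3, both lower. The median of the list was −0.35 and −0.38, with 10 of 12 genes negative at each dose, where all genes had medians of −0.02 and 0.00 and 7678 and 7507 of 15034 were negative. The shared SnC samples enter both values.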

How the data were processed

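RNA-Seq libraries (TruSeq Stranded Total RNA) covered 13 libraries of 12 samples. Per the labels and the Methods, the authors trimmed reads with Trimmomatic, checked them with FastQC 0.12.1, aligned them to GRCm39 with STAR 2.7.11b and quantified genes with RSEM 1.3.1. Whether RSEM was run with a strand setting is not given in the sources used here. RSEM's expected counts, without normalization, and its TPM values, normalized for transcript length and library size, were deposited by the authors for 57010 genes, of which 56297 were matched to the GRCm39 annotation. A deposited table that joins the libraries differed from these expected counts by at most 0.

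Expected counts were rounded and libraries 5(1) and 5(2) summed. Genes were filtered with filterByExpr (minimum count 10, total 15), which left 15034. The tests used edgeR 4.0.16 in R 4.3.3 (quasi-likelihood test, TMM factors, 1 fit over 4 groups, Benjamini-Hochberg adjustment in each of 6 comparisons). For CPM the counts were divided by the TMM-adjusted library size, and TPM were used for levels between genes and, beside CPM, for the ratio of Inhba to Fst and Fstl3 in each sample. DEGs needed an adjusted p below 0.05 and a log2 fold change beyond ±1, the thresholds the authors used. Alternatives were DESeq2 1.42.0, RLE factors, 2 other filters, only the groups compared, libraries 5(1) and 5(2) apart or alone, the mouse as a replicate block, each mouse left out, the adjusted p alone, and an offset per gene and library fitted to single-transcript sequence and length, also with the block. The genes named are the 10 members, list genes that were called, and the 3 genes nearest in pattern to a called member. Genes outside this rule (Orc4, Prss57, the marker genes and untested or single list genes) were named after their values were seen. One gene of the pathway list is not reported here. The members and lists were chosen with earlier results of these data known.

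Samples are paired between groups by the mouse that the labels name. Same-mouse deviations from the group mean correlated at −0.04 in the median of 18 pairs (range −0.33 to 0.60, 8 of them over 0.1). Intervals are 95% intervals of the edgeR fit. Libraries held 22782536 to 31278750 counts, and the part of depth in the precision was not tested. Promoter windows and their builds are those of RefSeq.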

Additional observations from a re-analysis of the deposited data

How the results depend on the processing

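In 18 alternatives the number of called genes among the 10 members stayed at 0 for SnCs against control MEFs, for 300 µg/mL against SnCs and between the doses. For 100 µg/mL against SnCs it was 1 instead of 0 with DESeq2, RLE factors, no filter beyond 1 count and at least 10 counts in every sample. In these alternatives the median shift of the log2 fold change in that comparison, over the genes in both fits, was 0.09, 0.09, 0.08 and 0.10. With only the 2 groups in the fit, where Acvr2a was not called, the median shift was 0.095. Against control MEFs the count at 100 µg/mL was 2 instead of 1 with no filter beyond 1 count and with library 5(1) alone (Gdf11 added), and at 300 µg/mL 2 with the adjusted p alone (Fst added). Of the log2 fold changes of single members, 960 values kept their direction and side of the threshold, 6 were newly called (Acvr2a and Gdf11, above), and 54 uncalled values changed sign, 15 of them of Inhbb and 10 of Inhba.

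Other pathway genes called in SnCs against control MEFs numbered 3 instead of 2 with DESeq2, RLE factors, at least 10 counts in every sample, library 5(1) alone and the replicate block (Pcsk5 added in each) and with the adjusted p alone, 1 with only the 2 groups in the fit, and 0 to 3 with 1 mouse left out, 0 without control mouse 6 and 1 without control mouse 4 or SnC mouse 5 or 6. At 100 µg/mL they numbered 3 instead of 2 with no filter beyond 1 count (Bmpr2, Tagln and Tgfbr3) and with the adjusted p alone, 0 with RLE factors, at least 10 counts in every sample and only the 2 groups, 1 with library 5(2) alone, the replicate block, the offset and the offset with the block, and 0 to 1 with 1 mouse left out (0 without any 1 SnC mouse or treated mouse 5, and 1 when treated mouse 4 or 6 was dropped). At 300 µg/mL they numbered 3 instead of 2 with the adjusted p alone, 0 with only the 2 groups, 1 with library 5(1) alone and the replicate block, and 0 to 1 with 1 mouse left out (0 without SnC mouse 6 or treated mouse 5 or 6, and 1 when SnC mouse 4 or 5 or treated mouse 4 was dropped). The causes were not tested. With the mouse as a replicate block, Acvr2a at 100 µg/mL had a log2 fold change of 1.24 (adjusted p = 0.0678), and apart from the loss of Tagln and the gain of Pcsk5 the pairing changed no call of a member or pathway gene in the comparisons with SnCs. Acvr1b had the fewest reads of the 10 genes (16 to 218 per sample), and the part of depth in its SE (0.73 at 100 µg/mL against SnCs, where that of Inhbb was 0.70) was not tested.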
